A study of Mus musculus with 16 samples.

Results

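Genes of the mitochondrial ribosome and of mitochondrial protein import were taken by symbol from the deposited expression table: Mrpl, Mrps, Timm and Tomm, each followed by a digit. The table lists 13982 genes, of which 102 matched, and 101 were kept because they reached 1 FPKM in at least 4 of the 16 libraries. FPKM is a fragment level scaled to transcript length and library size, so levels of different genes can be set side by side. The 101 genes comprise 49 of the large ribosomal subunit (Mrpl), 29 of the small subunit (Mrps), 14 of 15 of inner membrane import (Timm) and 9 of outer membrane import (Tomm). The gene left out, Timm8a2, reached 1 FPKM in 0 libraries and 0.16 FPKM at most. Nearest inside the filter were Mrpl40, Mrpl37 and Mrps6, which reached 1 FPKM in 15 libraries; the other 98 did so in all 16. Roles follow the symbols alone, and some products lie elsewhere. Those of Mrps18a and Mrps30, for example, sit in the large subunit, and Tomm34 is a cytosolic cochaperone.

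The libraries were made from cells stained for CD45 and CD11b and sorted from cortex, called infarct cortex in the protocol, of C57BL/6 mice. The cells are labelled as microglia. There were 4 groups of 4 libraries: Sham, labelled as untreated; MCAO, a stroke model in which the middle cerebral artery is blocked; then MCAO+Ctrl-exos; and finally MCAO+AS-exos. Animals of the last pair of groups had the same occlusion and were injected in the tail vein with 150 µg of plasma exosomes, small secreted vesicles, at 3-day intervals beginning on the day of the operation. The exosome donors were Apoe knockout mice, which lack a lipid transport protein; some ate a normal diet and others a western diet, given for 12 weeks in the atherosclerosis model. Which diet stands behind which exosome name is not spelled out in the labels, nor is the time from surgery to sorting or whether each library is a separate mouse. The p-values below therefore measure the spread between these libraries, which may be technical.

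Mitochondria keep a small genome, and their own ribosome translates its few messages, which encode core subunits of the respiratory chain. Every protein of that ribosome, and nearly all other mitochondrial proteins, is encoded in the nucleus and imported. Precursors cross the outer membrane through the TOM complex; the TIM23 complex then passes those with a presequence to the matrix, and the TIM22 complex inserts carrier proteins into the inner membrane with the help of small chaperones in the intermembrane space.

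Summed FPKM per library lay between 758283 and 983648; read depth is unknown, and counting error cannot be stated. Markers of the labelled cell type changed with the groups. The summed level of 12 homeostatic microglia markers was 22409 to 24857 FPKM in the Sham libraries and 1180 to 2068 FPKM in the MCAO libraries. In the same groups 12 markers of monocytes and their macrophages summed to 216 to 613 and to 6233 to 10903 FPKM. The 9 neutrophil markers in the table, of 12 listed, summed to 76.7 to 144 and to 1701 to 9898 FPKM, with Ly6g at 0 in all 8 libraries. For 9 of 10 markers of border-associated macrophages the sums were 13.8 to 72.4 and 2000.3 to 4601 FPKM. Replicates 1 to 3 of MCAO+AS-exos stood apart. Across the 101 genes their pairs differed by a median of 0.16 to 0.23 in log2(FPKM + 1). The other 21 pairs within a group, those of Sham included, differed by 0.36 to 0.83.

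The start regions of these genes share features that the choice by symbol did not use. In the GENCODE M21 annotation of the GRCm38 build, 41 of the 101 genes (40.6%) had a protein-coding gene of the opposite strand starting within 1000 bases of their own start. Among 10569 tested genes in the annotation the share was 17.4%. The share was 24 of 49 for the large subunit, 9 of 29 for the small subunit, 6 of 14 for the inner and 2 of 9 for the outer membrane group. The pairs include Mrps11 with Mrpl46, both members, with starts 412 bases apart, Mrps12 with the mitochondrial seryl-tRNA synthetase gene Sars2 (172 bases) and Timm8b with Sdhd, a subunit of respiratory complex II (98 bases).

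RefSeq promoter windows (GRCm38.p6, not the build of the deposited values) were found for 89 members, 97 windows in all. The 250 bases before each start were searched on both strands for the letters of 3 factors that are known to bind promoters of mitochondrial genes. The NRF1 letters, GCGCA followed by any base and GCGC, occurred in 11 windows (11.3%) and in 3.74% of all 32851 windows. The ETS-family letters CCGGAAG, bound by GABPA, occurred in 26 windows (26.8%) against 6.91%, and the YY1 letters AANATGGC in 7 (7.22%) against 3.91%. At least 1 of the motifs was present in 42.3% of the members' windows and in 13.4% of all windows. The set of all windows also holds genes below the level filter, which every member passed. Shares among the tested genes alone were not computed. None of these letter strings lies within another. A match is a description of letters and not a site of binding.

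To show such windows for genes that the results below turn on, the sequences of 5 are given, 5′ to 3′ on the gene's strand, ending at the start or before the first base that any annotated exon covers. Capitals mark a match. Tomm20 and Mrpl12 carry the NRF1 letters, beginning 20 and 81 bases before the start, and Mrpl52 the ETS letters, beginning 47 bases before it; in all 3 the letters lie on the other strand, so the capitals show their reverse complement. The windows shown for Tomm40 and Mrps16 hold none of the motifs; Mrps16 has 2 RefSeq windows, and the other one, which runs into exons, does hold a match.
Tomm20 (chr8:126945922-126946171, minus strand): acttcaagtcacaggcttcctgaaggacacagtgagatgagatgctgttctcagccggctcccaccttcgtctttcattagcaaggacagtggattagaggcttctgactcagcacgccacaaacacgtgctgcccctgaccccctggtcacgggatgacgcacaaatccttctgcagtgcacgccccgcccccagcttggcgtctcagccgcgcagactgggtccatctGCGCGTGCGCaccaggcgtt
Mrpl12 (chr11:120484387-120484612, plus strand): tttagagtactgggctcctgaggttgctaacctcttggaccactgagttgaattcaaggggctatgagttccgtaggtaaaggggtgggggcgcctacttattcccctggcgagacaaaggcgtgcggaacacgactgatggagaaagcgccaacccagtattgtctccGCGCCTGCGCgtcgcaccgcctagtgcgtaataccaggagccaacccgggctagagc
Mrpl52 (chr14:54426659-54426908, plus strand): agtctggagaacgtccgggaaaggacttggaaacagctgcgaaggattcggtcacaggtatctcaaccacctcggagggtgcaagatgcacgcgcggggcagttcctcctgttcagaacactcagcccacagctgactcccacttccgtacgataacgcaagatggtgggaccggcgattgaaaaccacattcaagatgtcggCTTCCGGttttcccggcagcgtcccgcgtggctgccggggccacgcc
Tomm40 (chr7:19715439-19715679, minus strand): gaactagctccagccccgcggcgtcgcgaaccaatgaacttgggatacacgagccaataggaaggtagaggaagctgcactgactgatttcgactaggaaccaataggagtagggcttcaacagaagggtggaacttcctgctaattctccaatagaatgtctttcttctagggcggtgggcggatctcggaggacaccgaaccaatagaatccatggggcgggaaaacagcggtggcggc
Mrps16 (chr14:20393635-20393884, minus strand): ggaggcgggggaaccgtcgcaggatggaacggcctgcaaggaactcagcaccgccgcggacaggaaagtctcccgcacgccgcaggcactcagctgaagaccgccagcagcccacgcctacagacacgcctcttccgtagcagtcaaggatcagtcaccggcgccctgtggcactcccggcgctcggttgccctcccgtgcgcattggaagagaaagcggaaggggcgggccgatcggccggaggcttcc

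Set against Sham, the MCAO libraries show how the sorted cells differed after stroke surgery. Of the 9 outer membrane import genes 6 rose after MCAO and 0 fell, with the widest rises in the channel genes Tomm40 and Tomm40l; the other 3, Tomm22, Tomm70a and Tomm34, did not pass. Of the 49 large subunit genes 11 rose and 4 fell, of the 29 small subunit genes 4 rose and 3 fell, and of the 14 inner membrane genes 4 rose and 1 fell. Timm21, whose product joins the TIM23 complex and assembly intermediates of the respiratory chain, had the widest change of all 101 genes, with a mean ± SD of 58.4 ± 28.2 FPKM in Sham falling to 3.67 ± 3.07 FPKM in MCAO (n = 4 each). In all, 25 of 101 genes rose and 8 fell (limma on log2(FPKM + 1), Benjamini-Hochberg adjusted p below 0.05 over 10846 tested genes), while 24.5% of all tested genes were called higher and 14.8% lower (39.2% in either direction). The share of members that rose, 24.8%, is close to the background, and the share that fell, 7.92%, lies under it. At an unadjusted p below 0.05, 30 members (29.7%) were higher and 10 lower, against 29.7% and 18.1% of all tested genes. Without overlap between the groups were 18 higher and 3 lower genes (17.8% and 2.97%), against 21.8% and 12% of all tested genes. The members' median log2 difference was 0.31 beside 0.25 over all tested genes.

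The table's scale shifted between these groups. Quantile normalization moved the median of all tested genes from 0.25 to -0.00 and the members' median from 0.31 to 0.09. It called 19 members higher and 10 lower, and 2149 and 2142 of all genes in place of 2654 and 1600. Of the 33 members called, 27 were also called there. Since fewer sorted cells of a type and less RNA per cell cannot be told apart in bulk libraries, and the marker sums above moved with these groups, the part of the cell mixture in each change below was not tested.

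**Figure D1:**
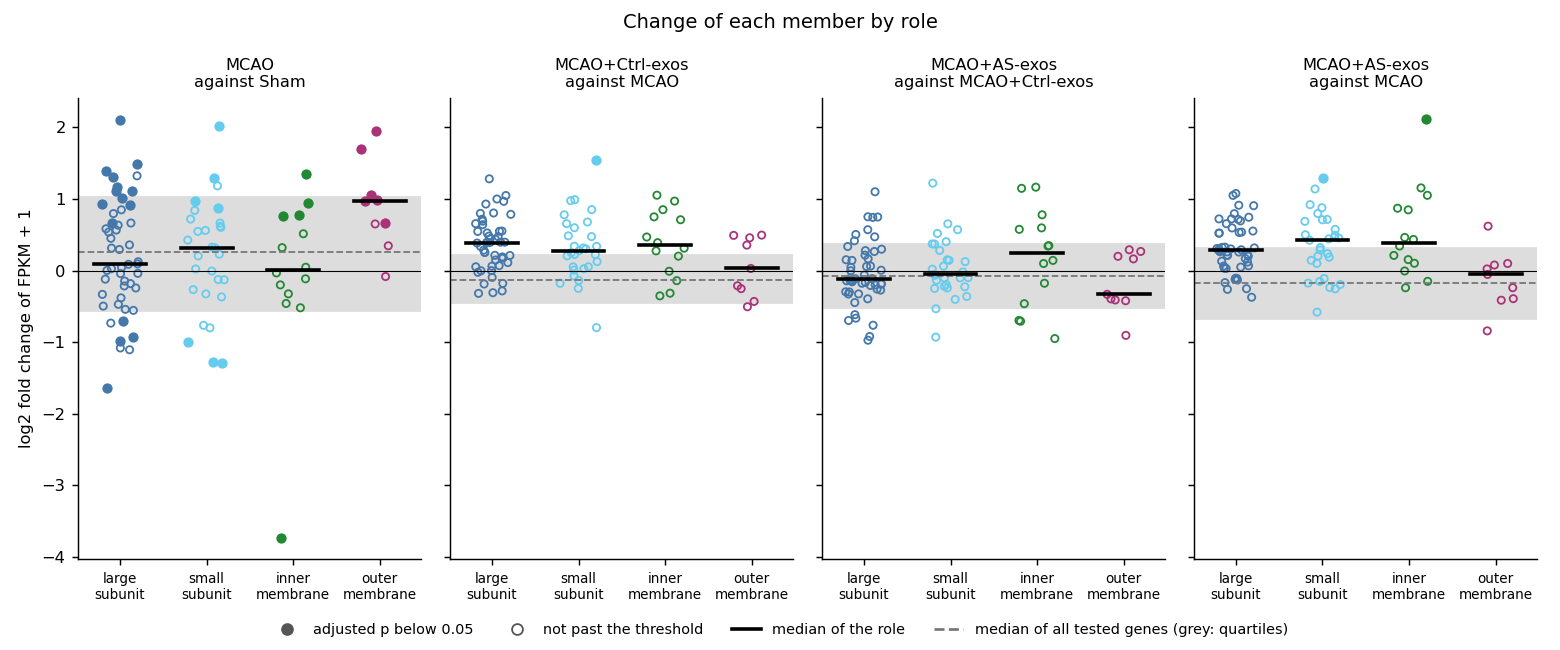
Log2 fold change of each of the 101 genes, by role, in the 4 comparisons. Filled points passed an adjusted p of 0.05, black bars are the median of a role, and the dashed line and grey band are the median and quartiles of all 10846 tested genes. In MCAO against Sham the 9 outer membrane genes have a median of 0.97 and Timm21 lies at -3.74; in the other comparisons 1, 0 and 2 points are filled.

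Among the outer membrane genes, Tomm40 encodes the channel through which nearly all precursors enter. Its levels in replicates 1 to 4 were 1.77, 4.29, 4.51 and 9.03 FPKM in Sham and 30.3, 20.7, 19.9 and 11.6 FPKM in MCAO. The lowest MCAO library lay above the highest Sham library, and the log2 difference was 1.95 ± 0.39 (± SE, limma adjusted p = 0.000558). Its paralog Tomm40l read 2.42, 2.70, 4.60 and 5.0 FPKM in Sham and 24.1, 16.97, 8.68 and 9.53 FPKM in MCAO, again without overlap (log2 difference 1.69 ± 0.35, adjusted p = 0.000846). Tomm40l made up 45.6 ± 10.3% of the pair's FPKM in Sham and 41.2 ± 7.22% in MCAO, a difference smaller than the spread between libraries. In the annotation 64.3% of the exon bases of Tomm40l are also covered by exons of Nr1i3 on the other strand; the sources used here do not say whether counting used strand.

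The small TOM subunits Tomm5, Tomm6 and Tomm7, which stabilise the channel complex, rose together. Tomm7, whose product also holds the kinase PINK1 at the outer membrane, read 154, 127, 86.2 and 79.4 FPKM in Sham and 193, 198, 236 and 230.3 FPKM in MCAO. Every MCAO library was above every Sham library (log2 difference 0.98 ± 0.26, adjusted p = 0.0058). Tomm6 rose from 107 ± 43.6 to 208 ± 29.8 FPKM (1.05 ± 0.29, adjusted p = 0.00722), and Tomm5 from 114 ± 16.98 to 224 ± 34.6 FPKM (0.97 ± 0.24, adjusted p = 0.00325). For both, each MCAO library lay above each Sham library. Tomm5, like Tomm34, Mrpl2, Mrpl18, Mrpl43, Mrpl46 and Mrpl52, is named after its values were seen. Exons of the overlapping gene models Gm21981, Tomm6os and Usp49 cover 84.2% of the exon bases of Tomm6, so its reads may be shared. Among other genes described below, Timm10b, Mrpl19, Mrpl43, Mrpl47, Mrps18b, Mrps18c and Mrps27 also share over 20% of their exon bases with another gene, so their values carry the same uncertainty.

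The receptors of the TOM complex moved less. Tomm20, the presequence receptor whose window with NRF1 letters is shown above, read 43.7, 43.95, 46.9 and 26.7 FPKM in Sham and 50.8, 60.1, 69.8 and 73.8 FPKM in MCAO. The groups did not overlap, with the fourth Sham library the lowest, and the log2 difference was 0.66 ± 0.24 (adjusted p = 0.0362). That call held in 10 of the 20 fits run for this comparison. Tomm22, the central receptor, stood at 89.8 ± 38.5 and 131 ± 18.9 FPKM (0.65 ± 0.28, adjusted p = 0.0722). Tomm70a, the receptor for carrier precursors, stood at 16.7 ± 6.40 and 20.6 ± 2.21 FPKM (0.34 ± 0.38, adjusted p = 0.498), and the cochaperone gene Tomm34 differed by -0.08 (adjusted p = 0.845). None of these last 3 passed the test.

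The inner membrane genes moved in both directions. Timm21 read 86.3, 57.6, 69.8 and 19.98 FPKM in the Sham replicates 1 to 4 and 1.22, 7.56, 4.71 and 1.21 FPKM in MCAO. Each MCAO library lay below each Sham library, with Sham replicate 4 well under the other Sham libraries. The log2 difference was -3.74 ± 0.49 (adjusted p = 5.72e-06), and it kept its call in all 20 fits, at -4.19 to -3.12 over the 19 alternatives. Other parts of the TIM23 complex went the other way. Timm23, the channel, rose from 115 ± 28.6 to 193 ± 41.4 FPKM (0.76 ± 0.24, adjusted p = 0.019), with the lowest MCAO library just above the highest Sham library. Timm50, which takes over presequences from the TOM complex, read 6.81, 5.07, 2.45 and 25.4 FPKM in Sham and 15.8, 27.7, 16.5 and 20.5 FPKM in MCAO. Sham replicate 4 lay among the MCAO values, and the difference of 1.35 ± 0.51 (adjusted p = 0.0437) was called in 7 of 20 fits.

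Of the small chaperones of the intermembrane space, Timm13 read 43.98, 84.3, 56.6 and 82.4 FPKM in Sham and 121, 119, 128 and 131 FPKM in MCAO. The MCAO libraries lay close together and above all Sham libraries (0.94 ± 0.25, adjusted p = 0.00524). Timm10b rose from 91.9 ± 26.6 to 156 ± 41.3 FPKM (0.77 ± 0.27, adjusted p = 0.0313), with overlapping groups and a call in 12 of 20 fits. Timm8b, the most abundant Timm gene with a mean of 273 FPKM over the 16 libraries, stood at 247 ± 47.7 and 263 ± 88.05 FPKM and did not pass (adjusted p = 0.908). Its paralog Timm8a1 took 9.86 ± 4.63% of the pair's FPKM in Sham and 9.09 ± 8.15% in MCAO. The import motor scaffold Timm44 (adjusted p = 0.54), the carrier channel Timm22 (0.365), its partner Timm29 (0.751) and the paralogs Timm17a (0.943) and Timm17b (0.629) of the TIM23 complex did not pass either. Timm29 had the lowest mean level of the Timm genes, 7.58 FPKM.

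**Figure D2:**
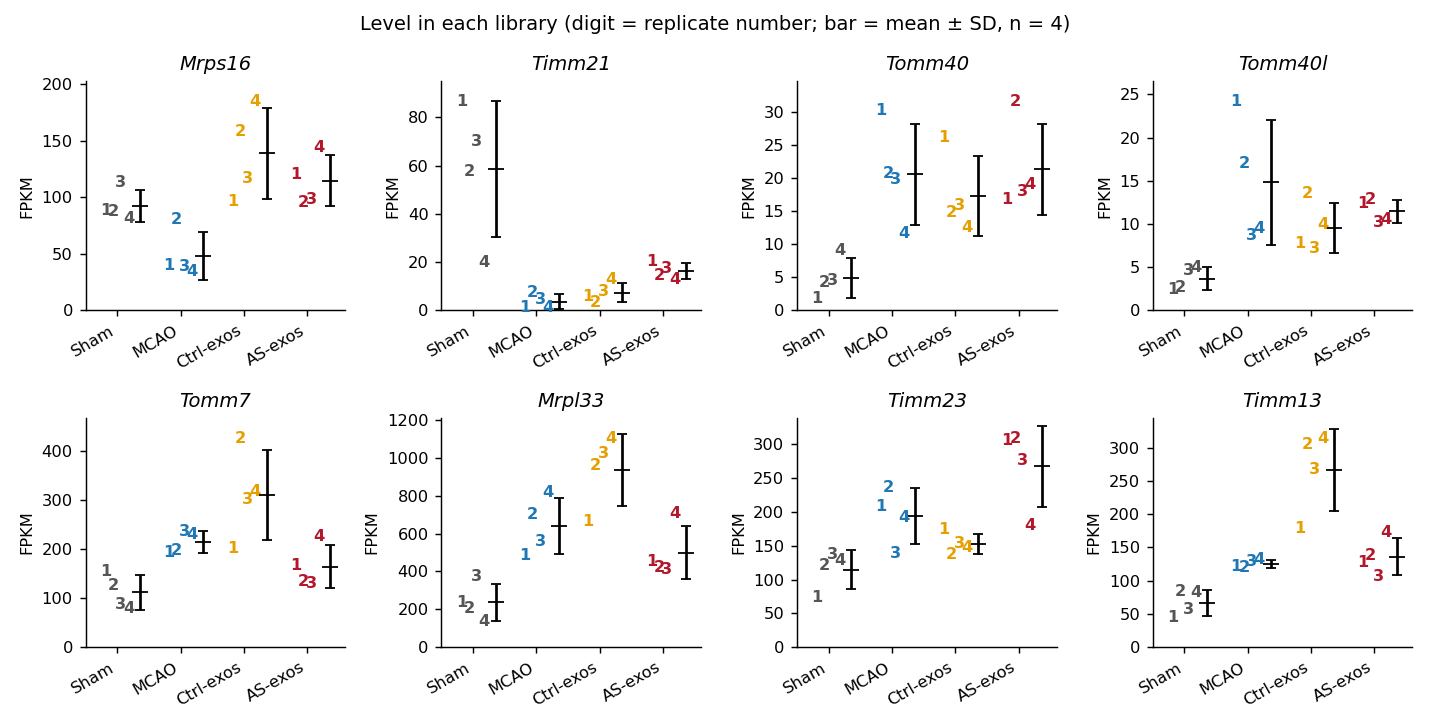
FPKM of 8 genes in each library; digits are replicate numbers, and bars are the mean ± SD of 4 libraries. Ctrl-exos and AS-exos stand for MCAO+Ctrl-exos and MCAO+AS-exos. Tomm40, Tomm40l, Tomm7, Mrpl33, Timm23 and Timm13 lie higher in every MCAO library than in every Sham library, Timm21 and Mrps16 lower.

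In the large ribosomal subunit the widest rises were those of Mrpl37, Mrpl33, Mrpl27 and Mrpl54. Mrpl33, the most abundant member with a mean of 579 FPKM over the 16 libraries, read 234, 207, 372 and 138 FPKM in Sham and 487, 704, 559 and 817 FPKM in MCAO. No Sham library reached the MCAO range (1.49 ± 0.28, adjusted p = 0.000247). Mrpl27, counterpart of the bacterial protein L27 at the site of peptide bond formation, rose from 45.7 ± 5.35 to 123 ± 33.4 FPKM (1.39 ± 0.25, adjusted p = 0.000204). Mrpl54, a protein with no bacterial counterpart, rose from 64.8 ± 17.3 to 159.6 ± 33.3 FPKM (1.31 ± 0.24, adjusted p = 0.000287). In both genes all MCAO libraries exceeded all Sham libraries.

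Mrpl37 had the widest rise, but on uneven values: 6.18, 23.8, 0.560 and 23.2 FPKM in Sham and 27.3, 42.97, 64.4 and 26.8 FPKM in MCAO. Sham replicates 2 and 4 lay just under the lowest MCAO library, and the difference was 2.10 ± 0.60 (adjusted p = 0.00905). Mrpl12, whose product also binds the mitochondrial RNA polymerase, read 49.2, 34.1, 42.1 and 48.4 FPKM in Sham and 96.98, 99.8, 92.6 and 88.2 FPKM in MCAO, without overlap (1.11 ± 0.25, adjusted p = 0.00134). Mrpl12, Mrpl27, Mrpl33 and Mrpl54 were called in all 20 fits, Mrpl37 in 19.

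The falls in the large subunit were Mrpl47, Mrpl32, Mrpl49 and Mrpl43. Mrpl32, a protein that is cut by the m-AAA protease on its way into the ribosome, read 140.4, 135, 185 and 62.8 FPKM in Sham and 43.7, 62.05, 65.9 and 77.1 FPKM in MCAO. Sham replicate 4 lay within the MCAO range (-0.99 ± 0.31, adjusted p = 0.0156). Mrpl47, near the exit of the peptide tunnel, stood at 52.4 ± 23.96 and 21.5 ± 17.1 FPKM (-1.64 ± 0.56, adjusted p = 0.025). Mrpl49 stood at 18.8 ± 6.19 and 8.97 ± 1.64 FPKM (-0.93 ± 0.31, adjusted p = 0.0237). Groups overlapped for both, and the calls held in 13 and 16 of 20 fits. Mrpl19 had the lowest mean level of all members, 5.67 FPKM, and did not pass (adjusted p = 0.222).

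In the small subunit Mrps10, Mrps2, Mrps12 and Mrps24 rose. Mrps10 read 1.82, 13.6, 32.2 and 7.07 FPKM in Sham and 36.5, 48.2, 34.4 and 44.9 FPKM in MCAO. The highest Sham library came close to the lowest MCAO library without crossing it (2.02 ± 0.49, adjusted p = 0.0027). Mrps24 rose from 52.4 ± 19.7 to 90.5 ± 6.35 FPKM (0.87 ± 0.27, adjusted p = 0.0153), without overlap. Mrps2 stood at 8.19 ± 6.35 and 17.2 ± 5.09 FPKM (adjusted p = 0.0398). Mrps12, counterpart of the bacterial decoding protein S12, stood at 50.02 ± 26.7 and 87.6 ± 20.9 FPKM (adjusted p = 0.0394). For Mrps2 and Mrps12 the groups overlapped, and the calls held in 12 and 9 of 20 fits.

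Mrps16, Mrps11 and Mrps31 fell. Mrps16, counterpart of bacterial S16 and a gene in which loss-of-function mutations cause a respiratory chain disorder in humans, read 88.2, 87.6, 113 and 81.6 FPKM in Sham and 39.5, 80.4, 38.7 and 34.4 FPKM in MCAO. MCAO replicate 2 came close to the lowest Sham library while the other MCAO libraries lay far below (-1.001 ± 0.28, adjusted p = 0.00763). Mrps11 read 22.5, 40.6, 42.4 and 63.2 FPKM in Sham and 17.6, 14.5, 9.70 and 24.8 FPKM in MCAO, overlapping at the first Sham library (-1.27 ± 0.38, adjusted p = 0.0126). Both calls held in all 20 fits. Mrpl46, which starts head to head with Mrps11, did not move with it (0.36, adjusted p = 0.39). Mrps31 stood at 26.96 ± 13.2 and 10.3 ± 4.80 FPKM (-1.29 ± 0.43, adjusted p = 0.0237), with overlapping groups.

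Of the 3 Mrps18 paralogs 0 passed the test, and differences between them were not tested. Mrps18c was the most abundant small subunit gene, with a mean of 415 FPKM over the 16 libraries, and stood at 348 ± 135 FPKM in Sham and 450.2 ± 111 FPKM in MCAO (adjusted p = 0.334). Mrps18a stood at 47.9 ± 23.8 and 33.3 ± 8.39 FPKM (adjusted p = 0.49), and Mrps18b at 49.6 ± 24.99 and 59.1 ± 30.9 FPKM (adjusted p = 0.7). Mrps27, the least abundant Mrps gene with 9.40 FPKM, had an adjusted p of 0.992.

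Called genes with a head-to-head neighbour were set beside that neighbour. Of 16 such members with a tested neighbour, 2 neighbours passed in the same direction and 2 in the other, and 12 did not pass. Of all tested genes, 39.2% were called in either direction in MCAO against Sham. Mrpl18 and Mrpl2 rose with their neighbours Tcp1 and Klc4. Mrpl47 and Mrpl49 fell while Ndufb5, a subunit of respiratory complex I, and Fau, which encodes a cytosolic ribosomal protein, rose. Exons of Tcp1 cover 10.1% of the exon bases of Mrpl18, and those of Actl6a and Ndufb5 cover 24.2% of those of Mrpl47. Reads may be shared within these pairs. Mrpl2 and Mrpl49 share no exon bases with Klc4 and Fau. Calls were also counted by promoter letters: of 40 members with a match 9 rose and 5 fell, and of 49 without one 13 rose and 2 fell. The shares that rose, 22.5% and 26.5%, are near the 24.5% of all tested genes, and those that fell, 12.5% and 4.08%, lie under 14.8%.

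**Figure D3:**
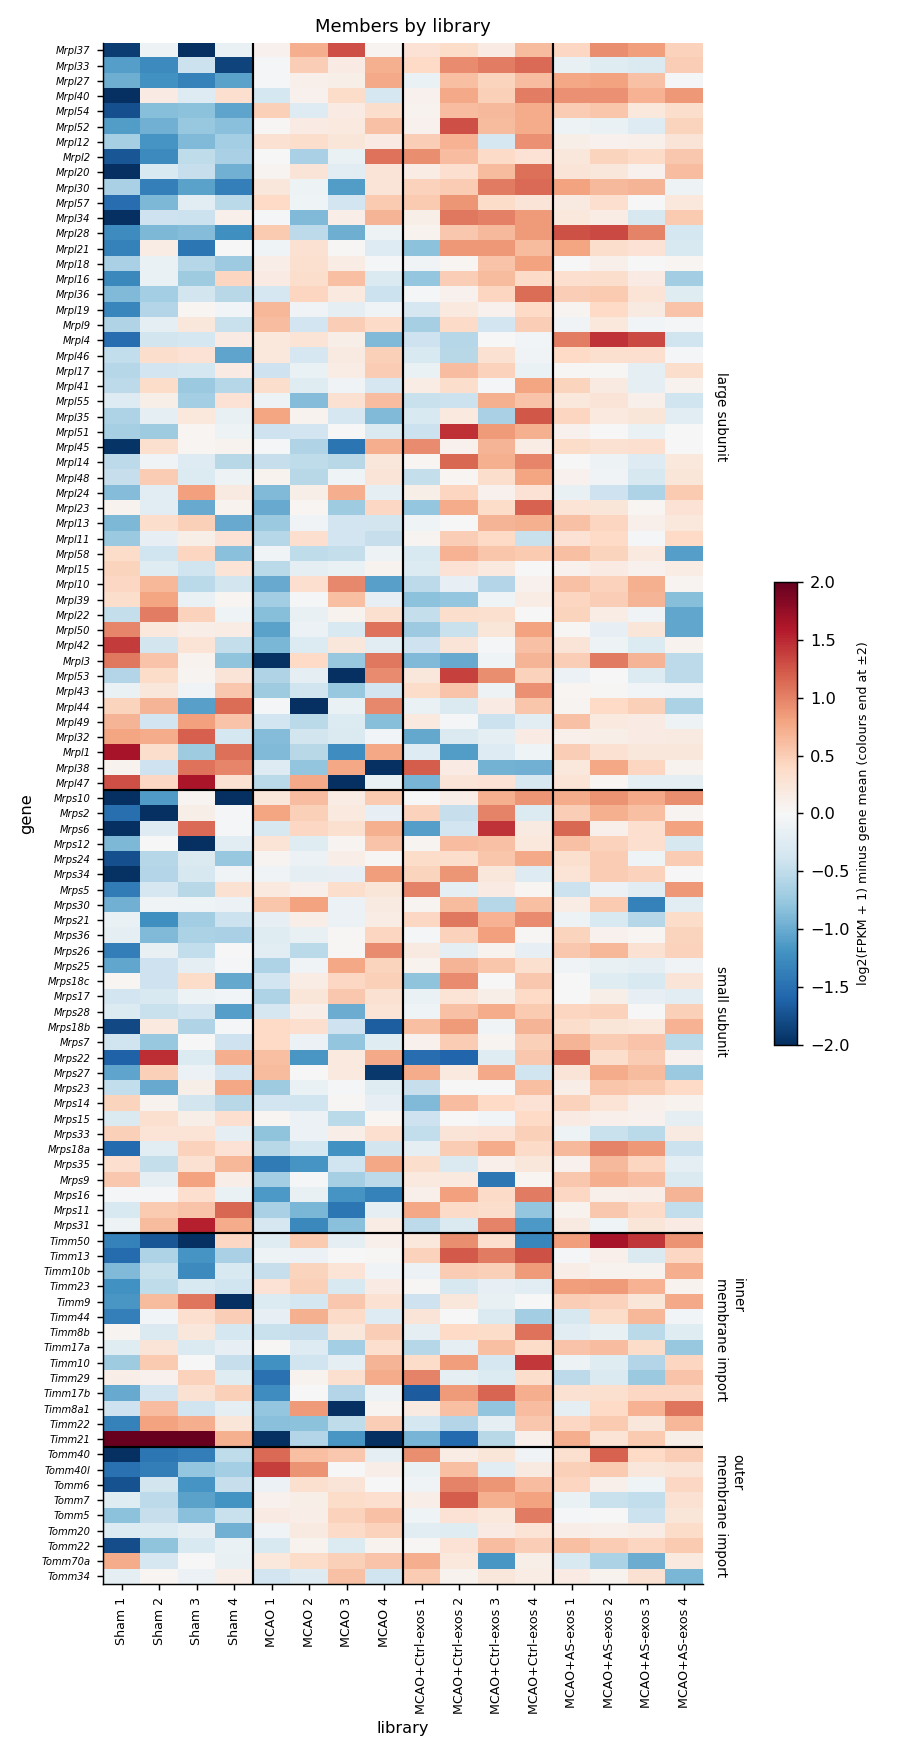
Log2(FPKM + 1) of each of the 101 genes in each of the 16 libraries, minus the gene's mean over the libraries; colours end at ±2, and genes are ordered within each role by their MCAO against Sham difference. The Sham columns are low at the top of each block, and in 3 of the 4 blocks high at its foot, and MCAO+AS-exos replicates 1 to 3 resemble one another more than other libraries of a group do.

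Lists of other genes of the same pathways, 93 tested genes in all, held 14 that rose and 8 that fell after MCAO, again beside 24.5% and 14.8% of all tested genes. Among ribosomal proteins without an Mrp number 1 of 5 rose, Aurkaip1, from 39.1 ± 15.9 to 98.1 ± 14.3 FPKM. Of 20 assembly factors 3 rose and 1 fell; the helicase gene Ddx28 rose (2.01 ± 0.54, adjusted p = 0.00633) and Ngrn fell (-1.68 ± 0.56, adjusted p = 0.0234). Of 12 translation factors 1 rose and 1 fell. They were the 2 mitochondrial elongation factor G genes: Gfm1, which moves the ribosome along the message, rose from 2.67 ± 1.998 to 17.9 ± 6.47 FPKM (2.51 ± 0.44, adjusted p = 0.000138). Gfm2, which acts in ribosome recycling, fell from 12.2 ± 2.88 to 4.26 ± 3.13 FPKM (-1.48 ± 0.49, adjusted p = 0.0225).

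The counts of called genes below stand beside 24.5% of all tested genes called higher and 14.8% called lower. Of the 16 mitochondrial aminoacyl-tRNA synthetase genes tested 0 passed. At an unadjusted p below 0.05, 0 of them were higher and 1 lower, against 29.7% and 18.1% of all tested genes. Of 11 genes of mitochondrial DNA transcription and maintenance 3 fell and 1 rose. Tfam, which packages mitochondrial DNA and starts its transcription, fell from 11.5 ± 3.67 to 4.53 ± 0.980 FPKM (-1.15 ± 0.32, adjusted p = 0.0069). Polg, the mitochondrial DNA polymerase, rose from 2.93 ± 1.84 to 8.73 ± 0.580 FPKM (adjusted p = 0.0105). Of 17 genes of the import motor, processing peptidases and matrix chaperones 4 rose and 2 fell. The chaperone gene Hspd1, mitochondrial HSP60, rose from 21.8 ± 10.1 to 57.5 ± 14.2 FPKM (adjusted p = 0.00143), and Romo1 from 124 ± 35.7 to 337 ± 33.1 FPKM (adjusted p = 9.22e-05). Immp2l, a subunit of the inner membrane peptidase, fell from 20.4 ± 12.5 to 0.810 ± 1.51 FPKM (-3.62 ± 0.52, adjusted p = 1.67e-05). Of 12 genes of outer membrane insertion, intermembrane space import and the insertase 4 rose, including Mtch1 and Samm50, and 1 fell.

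MCAO+Ctrl-exos was compared with MCAO to see the difference that came with injected exosomes. An injection is described only for the exosome groups, and none, of vehicle or otherwise, is described for the MCAO animals. From what is described, exosomes and injection cannot be told apart in this comparison or in MCAO+AS-exos against MCAO. Mrps16 was the only member past the test: 1 of 101 rose and 0 fell, while 0.0461% of all tested genes (5 genes) were called higher and 0.0277% lower (0.0738% in either direction). Below that threshold the members leaned upward. Of the 101 differences 79 were above 0 (78.2%), against 38.8% of all tested genes, and the median was 0.32 against -0.14. At an unadjusted p below 0.05 there were 14 members higher (13.9%) and 0 lower, against 4.51% and 6.38% of all tested genes. The groups did not overlap for 7 higher members (6.93%), against 1.99% of all tested genes, and for 0 lower members, against 3.99%.

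Mrps16 read 39.5, 80.4, 38.7 and 34.4 FPKM in MCAO replicates 1 to 4 and 96.05, 159, 117 and 184 FPKM in MCAO+Ctrl-exos. Every MCAO+Ctrl-exos library exceeded every MCAO library, and 3 of the 4 exceeded every Sham library as well. The log2 difference was 1.55 ± 0.28 (adjusted p = 0.0394, 95% interval 0.97 to 2.13). The call was lost in 11 of 20 alternatives, with adjusted p values from 0.00895 to 0.167 and differences from 1.34 to 1.82. Among these, leaving out MCAO replicate 1, 3 or 4 or MCAO+Ctrl-exos replicate 2, 3 or 4 left 0 members called, and the replicate block gave 0. Leaving out MCAO+Ctrl-exos replicate 1, whose member sums were the lowest of its group, gave 4 higher (3.96%, against 0.655% of all tested genes): Mrps16, Timm13, Mrpl51 and Mrpl14, named after their values were seen.

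By role, medians were 0.39 for the large subunit, 0.28 for the small subunit and 0.35 for the inner membrane genes, and 0.03 for the 9 outer membrane genes; differences between roles were not tested. Summed FPKM of the 49 large subunit genes was 3465, 3968, 3850.1 and 4822 in the MCAO libraries and 3889.6, 6238, 5694 and 6719 in MCAO+Ctrl-exos. Replicate 1 of MCAO+Ctrl-exos lay within the MCAO range and the other 3 above it. The members took 0.758 to 0.852% of all FPKM in Sham, 0.903 to 1.12% in MCAO, 0.988 to 1.303% in MCAO+Ctrl-exos and 0.965 to 1.05% in MCAO+AS-exos. Of the 101 genes, 46 had their highest group mean in MCAO+Ctrl-exos, 33 in MCAO+AS-exos, 15 in Sham and 7 in MCAO; 58 had their lowest in Sham.

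**Figure D4:**
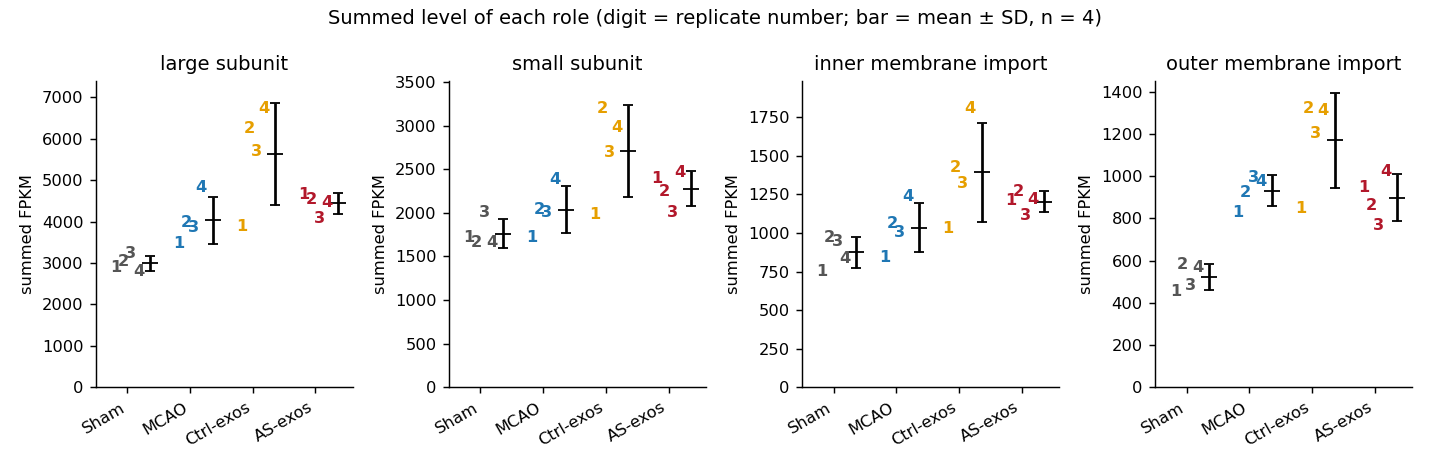
Summed FPKM of the genes of each role in each library; digits are replicate numbers, and bars are the mean ± SD of 4 libraries. Ctrl-exos and AS-exos stand for MCAO+Ctrl-exos and MCAO+AS-exos. For the outer membrane genes all Sham libraries (454 to 580.3 FPKM) lie below all others (766 to 1320), and MCAO+Ctrl-exos replicate 1 lies below replicates 2 to 4 of its group in every role.

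Transcript length moved with this lean. The members have short transcripts, with a median of 1125 bases against 2070 for all genes that passed the filter (GENCODE M21, median over coding transcripts). Of the 34 shortest members, under 790 bases, 33 were higher in MCAO+Ctrl-exos, with a median of 0.39. The 1215 tested genes of those lengths had a median of 0.09, and the share of them that were higher was not computed. The 33 members of middle length had a median of 0.39 against -0.02 for the 2229 tested genes of those lengths, and the 34 longest 0.06 against -0.20. Removing the trend on length from each library took the members' median to 0.18 and that of all genes to -0.15, and scaling the totals to be equal took them to 0.12 and -0.31. Within each length class the members' median thus lay above that of other genes of like length, a difference for which no test was made.

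**Figure D5:**
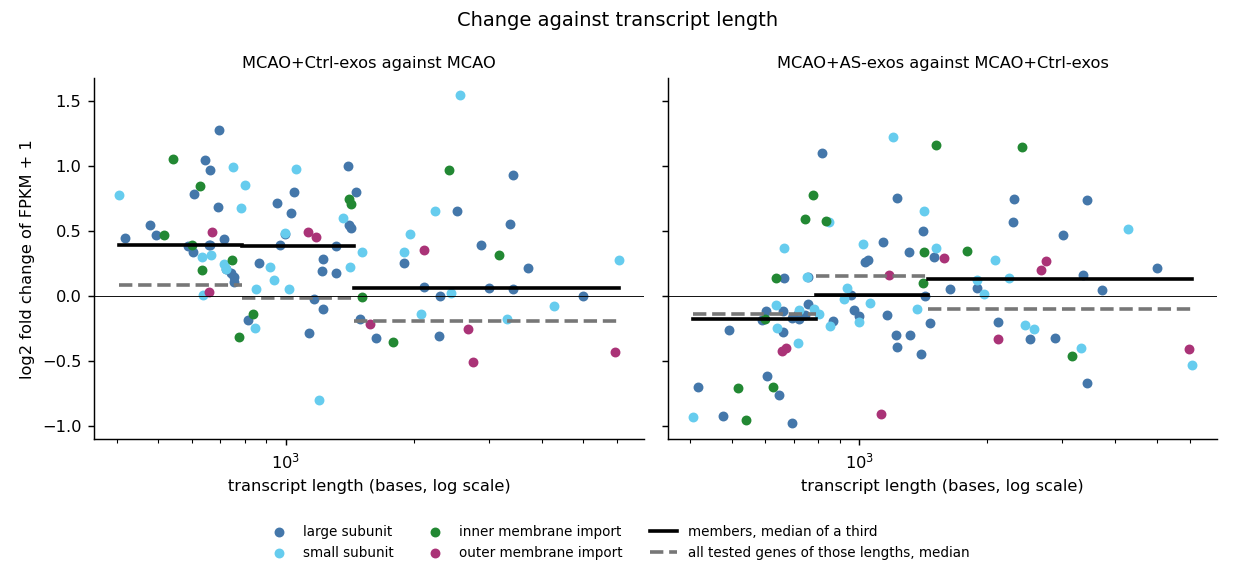
Log2 fold change of each of the 101 genes against its transcript length (bases, log axis) in 2 comparisons. Black bars are the members' medians in 3 length classes and dashed bars those of all tested genes of the same lengths. In MCAO+Ctrl-exos against MCAO the members' bars (0.39, 0.39 and 0.06) lie above the dashed ones (0.09, -0.02 and -0.20). In MCAO+AS-exos against MCAO+Ctrl-exos the members' bars lie at -0.18, 0.0045 and 0.13 and the dashed ones at -0.14, 0.15 and -0.10.

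The comparison of MCAO+AS-exos with MCAO+Ctrl-exos sets the exosomes of both kinds against each other. Of the 101 members 0 passed in either direction, while 0.157% of all tested genes were called higher (17) and 0.129% lower (14), 0.286% in either direction. At an unadjusted p below 0.05 there were 4 higher and 9 lower (3.96% and 8.91%), against 7.62% and 12% of all tested genes. The groups did not overlap for 5 higher and 4 lower members (4.95% and 3.96%), against 5.19% and 5.02%. The members' median was -0.07 beside -0.08 for all tested genes. The members nearest the threshold were Timm13 and Mrps21 (adjusted p = 0.0729 for both), Tomm7 (0.0836) and Mrpl33 (0.0881), all with lower values in MCAO+AS-exos.

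Timm13 read 179, 304, 267 and 314 FPKM in MCAO+Ctrl-exos and 128, 138, 106 and 172 FPKM in MCAO+AS-exos. The groups did not overlap, and the difference was -0.95 ± 0.25 (95% interval -1.47 to -0.43), which missed the adjusted threshold. Over 21 alternatives the Timm13 difference lay between -1.25 and -0.458, with adjusted p values from 0.000276 to 0.912. Mrps21, a small subunit protein, read 448, 695, 545 and 645 and 314, 270.3, 225 and 432 FPKM, with the fourth MCAO+AS-exos library just under the lowest MCAO+Ctrl-exos library (-0.93 ± 0.25). Tomm7 read 201, 425, 299.9 and 318 and 166, 134, 129.8 and 226 FPKM, and Mrpl33 662, 961, 1021 and 1102 and 454, 422, 410.1 and 707 FPKM. For both, MCAO+AS-exos replicate 4 fell inside the MCAO+Ctrl-exos range while replicates 1 to 3 lay below it. The differences were -0.91 ± 0.26 and -0.92 ± 0.28.

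This comparison depended on MCAO+AS-exos replicate 4. Without it 2 members were higher (Timm23 and Mrpl4) and 6 lower (Timm13, Tomm7, Mrps21, Mrpl33, Mrpl14 and Mrpl52), genes named after their values were seen. Calls rose across the table: 3.52% of all tested genes were higher and 8.44% lower, above the members' 1.98% and 5.94%. The members' calls rest on replicates 1 to 3, the libraries that differed least from each other. Timm23 read 174, 137, 153 and 148 FPKM in MCAO+Ctrl-exos and 305, 309, 277 and 179.9 FPKM in MCAO+AS-exos; replicate 4 was the nearest to MCAO+Ctrl-exos, and the difference with all libraries was 0.78 ± 0.24 (adjusted p = 0.0977). Without MCAO+Ctrl-exos replicate 1 there was 1 lower member, Timm13 (0.99%, against 0.452% of all tested genes). Of the members with the shortest transcripts 7 of 34 members were above 0 (median -0.18, against -0.14 for all tested genes of those lengths). The longest members went the other way, with 22 of 34 above 0 (median 0.13, against -0.10). Of those of middle length 17 of 33 were above 0 (median 0.0045, against 0.15). Shares above 0 among all tested genes of the same lengths were not computed.

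The comparison of MCAO+AS-exos with MCAO shares its MCAO libraries with the contrasts above. Here 2 of 101 members rose, Mrps16 and Timm21, and 0 fell, while 1.06% of all tested genes were called higher (115) and 5.08% lower (551), 6.14% in either direction. At an unadjusted p below 0.05, 13 members (12.9%) were higher and 1 lower, against 6.91% and 18.8%. Timm21 read 1.22, 7.56, 4.71 and 1.21 FPKM in MCAO and 20.2, 14.5, 17.5 and 12.9 FPKM in MCAO+AS-exos, without overlap (2.12 ± 0.49, adjusted p = 0.0283). The MCAO+AS-exos values lay below Sham replicates 1 to 3, and replicate 1 lay just above Sham replicate 4. In MCAO+Ctrl-exos Timm21 read 5.71, 3.37, 7.75 and 12.7 FPKM, overlapping MCAO. Its difference between the exosome groups was 1.15 ± 0.49, with a 95% interval of 0.11 to 2.18 and an adjusted p of 0.21. Mrps16 read 120.0, 95.9, 98.2 and 144 FPKM in MCAO+AS-exos, above every MCAO library (1.297 ± 0.28, adjusted p = 0.0218). Between the exosome groups Mrps16 differed by -0.25 ± 0.28 (95% interval -0.83 to 0.33, adjusted p = 0.655).

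The fall of Mrps16 against Sham and its rises in both exosome groups rest on the same 4 MCAO libraries, so they are not independent. Group means of Mrps16 were 92.6 ± 13.9 FPKM in Sham, 48.3 ± 21.5 in MCAO, 139 ± 39.97 in MCAO+Ctrl-exos and 115 ± 22.6 in MCAO+AS-exos. Group means of Timm21 were 58.4 ± 28.2, 3.67 ± 3.07, 7.39 ± 3.98 and 16.3 ± 3.23 FPKM in the same order.

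Below the threshold the members leaned upward here too: 78 of 101 differences from MCAO were above 0 (77.2%, against 40.9% of all tested genes), with a median of 0.28 against -0.17. With the length trend removed these medians were 0.17 and -0.10, and with equal totals 0.16 and -0.27. The lean here and the one in MCAO+Ctrl-exos are taken against the same MCAO libraries, so they are not independent. Replicates 1 to 3 of MCAO+AS-exos also differed less from each other than other libraries of a group did. The groups did not overlap for 14 higher members (13.9%, against 4.29%) and 1 lower (against 10.1%). The lower one was the carrier receptor Tomm70a, at 20.6 ± 2.21 FPKM in MCAO and 11.6 ± 4.46 FPKM in MCAO+AS-exos (-0.84 ± 0.38, adjusted p = 0.17). Timm50 and Tomm22 were among the higher ones: Timm50 stood at 20.1 ± 5.44 and 46.2 ± 12.9 FPKM (adjusted p = 0.164), Tomm22 at 131 ± 18.9 and 200.2 ± 10.2 FPKM (adjusted p = 0.17).

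Both calls were lost when replicates 1 to 3 of MCAO+AS-exos were averaged to 1 value (0 members, with adjusted p of 0.578 for Mrps16 and 0.622 for Timm21). They were also lost without MCAO+AS-exos replicate 1, 2 or 3 and without MCAO replicate 1 or 4 (0 members each); without MCAO replicate 3, Timm21 alone was called. Without MCAO+AS-exos replicate 4 there were 6 higher members, adding Mrpl4, Mrps18a, Mrpl28 and Mrps9, chosen after their values were seen. The same fit called 422 higher and 1602 lower of all genes, so the members' 5.94% higher stands beside 3.89%. Quantile normalization called the same 2 members, and 82 higher and 197 lower of all genes in place of 115 and 551.

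Of the 93 other genes of the pathways, 0 passed in MCAO+Ctrl-exos against MCAO and 0 in MCAO+AS-exos against MCAO+Ctrl-exos. At an unadjusted p below 0.05 there were 5 higher and 3 lower in the former, against 4.51% and 6.38% of all tested genes. The latter held 6 higher and 3 lower, against 7.62% and 12% of all tested genes. In MCAO+AS-exos against MCAO 1 rose, where 1.06% of all tested genes were called higher and 5.08% lower. It was Aifm1, which works with the intermembrane space import receptor Chchd4. Its level rose from 4.44 ± 1.98 to 13.95 ± 3.12 FPKM (1.52 ± 0.37, adjusted p = 0.0324). Among the 3 MCAO groups the marker sums overlapped for most lists: homeostatic microglia markers summed to 1180 to 2068 FPKM in MCAO, 1346 to 1423 in MCAO+Ctrl-exos and 1328 to 1991 in MCAO+AS-exos. Monocyte and macrophage markers summed to 6233 to 10903, 7706 to 15742 and 6634 to 24065 FPKM, and neutrophil markers to 1701 to 9898, 1833 to 3640 and 3495 to 7873 FPKM. Their part in the differences between these groups was not tested.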

How the data were processed

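Per the labels, cDNA of the sorted cells was amplified, fragmented by transposon and circularized before sequencing. Of tools, the submitters' processing notes list RSEM 1.3.1, HISAT2 and Bowtie2, with the build GRCm39.p6 and no roles. The unit of the deposited values was inferred to be FPKM, as computed by the authors from RSEM output; the files hold no counts, and the 16 single-library files equal the table. Groups come from the sample titles.

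Values were taken as log2(FPKM + 1), which understates changes of low genes. The 10846 genes reaching 1 FPKM in 4 or more libraries were fitted with limma 3.58.1 in R 4.3.3: 4 group means over 16 libraries, eBayes with trend and robust, two-sided, Benjamini-Hochberg adjusted over all tested genes, threshold 0.05. The procedure was tested on simulated data. Replicate numbers are not said to mark pairs, and residuals of equal numbers correlated at -0.148 to 0.0923.

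The members and lists were chosen with earlier results of these data known. Genes named are, per role, up to 4 called rises and 3 called falls in MCAO against Sham; all called members, or else the 4 with the smallest p, in each other comparison; the highest and lowest level of each role; paralogs, channels and receptors; and up to 3 genes of each pathway list. Alternatives were no trend, quantile normalization, equal totals, removal of length trends, a replicate block, library weights, no level filter or one at 5 FPKM, 0.1 as pseudocount, only the 8 libraries compared, a 2-fold minimum, and leaving out each library. Added after the data were seen were removal of length and GC trends together and averaging MCAO+AS-exos replicates 1 to 3. Lengths and neighbours come from GENCODE M21 and promoter windows from RefSeq, both on GRCm38 and matched by symbol. Exon overlap with other genes was computed there: 13 members share over 20% of their exon bases.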

Additional observations from a re-analysis of the deposited data

Results flagged for a closer look

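Within groups of 4 libraries, the highest or lowest value was compared with the other 3 by the criterion of Dixon at the 95% level. It stood apart in 14 of 176 checks. The nominal rate of about 1 in 20 assumes normal and independent values, which FPKM of genes from the same libraries need not be. Whether 14 flags exceed chance was therefore not tested. In MCAO+AS-exos it was replicate 4 that stood apart for Mrpl12 (93.9 FPKM, others 83.4 to 84.7), Mrpl33 (707 FPKM, others 410.1 to 454), Timm10b (244 FPKM, others 156 to 163) and Tomm20 (69.05 FPKM, others 56.8 to 58.9). Replicates 1 to 3 of this group differed less from each other than other libraries of a group did, so a small distance can set replicate 4 apart. These flags do not show which libraries of the group are unusual. In the same group Tomm40 stood apart in replicate 2 (31.6 FPKM, others 16.8 to 19.1). In MCAO, Mrps16 was high in replicate 2 (80.4 FPKM, others 34.4 to 39.5), Mrpl19 in replicate 1 (9.12 FPKM, others 4.65 to 5.10), and Mrpl27 (173 FPKM, others 99.3 to 111) and Timm22 (15.9 FPKM, others 5.71 to 7.44) in replicate 4. In Sham, Timm8a1 was high in replicate 2 (41.0 FPKM, others 19.8 to 23.4) and Tomm20 low in replicate 4 (26.7 FPKM, others 43.7 to 46.9).

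Measures over all 101 genes also set Sham libraries apart. Sham replicate 1 had the lowest median level (31.5 FPKM, others 42.1 to 42.8) and the lowest median log2 difference from the MCAO mean (-0.53, others -0.20 to -0.15). Sham replicate 3 had the highest share of library FPKM in these genes (0.852%, others 0.758 to 0.771%).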

How the results depend on the processing

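No result past its threshold changed direction under the alternatives. In MCAO against Sham the 25 higher and 8 lower members became 16 higher and 6 lower with only the 8 libraries compared. These were 15.8% and 5.94% of members, against 20.9% and 12.3% of all tested genes. A 2-fold minimum left 14 higher and 5 lower. These 13.9% and 4.95% of members lay under the 22.1% and 13.3% of all tested genes. Leaving out 1 library gave 19 to 26 higher and 5 to 9 lower. All tested genes stood at 21.7% to 25.1% higher and 12.9% to 14.1% lower in those fits. The members' median of 0.31 became 0.0931 with quantile normalization and 0.0948 to 0.351 when 1 library was left out, lowest without Sham replicate 1. Over the 20 fits, 11 members were always higher and 3 always lower.

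In MCAO+Ctrl-exos against MCAO the 1 higher member became 0 without trend, with equal totals, without a filter and with only the 8 libraries compared, 3 with library weights (2.97%, against 0.443% of all genes) and 4 without both MCAO+AS-exos replicate 4 and MCAO+Ctrl-exos replicate 1 (3.96%, against 1.06%); leaving out 1 library gave 0 to 4. In MCAO+AS-exos against MCAO+Ctrl-exos the 0 higher and 0 lower members became 9 and 13 with library weights (8.91% and 12.9%, against 11.3% and 18.8% of all genes) and 2 and 8 without those 2 libraries (1.98% and 7.92%, against 3.28% and 6.75%); leaving out 1 library gave 0 to 2 higher and 0 to 6 lower. In MCAO+AS-exos against MCAO the 2 higher and 0 lower became 23 and 3 with library weights (22.8% and 2.97%, against 10.5% and 26% of all genes), 6 higher without those 2 libraries (5.94%, against 4.28%), 0 with only the 8 libraries compared and 0 with MCAO+AS-exos replicates 1 to 3 averaged, an alternative added after the data were seen; leaving out 1 library gave 0 to 6 higher. The cause of these moves was not tested, beyond the fewer libraries in the fits that leave some out. Where 1 library was left out, the shared spread comes from all remaining libraries.

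With the replicate number as a block, MCAO against Sham gave 23 higher and 8 lower, and MCAO+Ctrl-exos against MCAO gave 0. The other comparisons kept their counts. The labels do not say that the numbers mark pairs, and whether libraries of equal number were handled together is not known. Single-gene results under alternatives fell on the same side of the threshold 766 times, lost it 101 times and gained it 20 times. Depth is unknown, genes at a few FPKM are the least certain, and a gene that was not called may still differ between the groups. Genes that share exons with others (Tomm40l, Tomm6) and the roles of length and cell mixture limit single values.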
